A study of Mus musculus with 768 samples.

Results

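Of the 24489 genes counted in single nuclei of mouse striatum, 8 belong to the somatostatin and neuropeptide Y systems described here and were chosen by name. They are the peptide precursor genes Sst and Npy, Chodl and Moxd1 as genes of peptide-making interneurons, the somatostatin receptor genes Sstr1 and Sstr2, and the neuropeptide Y receptor genes Npy1r and Npy2r. The nuclei came from untreated C57BL/6 mice of the genotypes Oprm1-Cre:H2BG and Slc32a1-Cre:H2BG, on 1 plate of 16 rows by 24 columns for each genotype. Both genotypes carry H2BG, and they differ in the gene that drives Cre. The Oprm1-Cre plate was made to include neurons of the patches, a compartment rich in mu opioid receptor, and the Slc32a1-Cre plate to sample GABAergic neurons. No animal is named in the labels, so genotype, plate, animals and any difference in their sex cannot be told apart. Each plate therefore counts as 1 sample.

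Of 384 wells per plate, 355 Oprm1-Cre and 381 Slc32a1-Cre nuclei were kept, with median depths of 169398 and 175337 reads on genes. Levels are given as CPM, the reads of a gene per 1000000 reads on genes. Spiny projection neurons (SPNs), the output neurons of the striatum, were split by 7 markers of the D1 dopamine receptor type and 7 of the D2 type. The Oprm1-Cre plate held 299 D1-like and 24 D2-like nuclei, and the Slc32a1-Cre plate held 195 and 147. A further 14 and 16 were undecided. The remaining 18 and 23 nuclei formed 1 cluster of several interneuron types with low SPN markers, led by genes such as Hhip, Trh, Kit, Nxph1 and Lhx6, and are called not SPN-like.

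As background, somatostatin and neuropeptide Y are peptides that neurons store in dense-core vesicles and release beside a fast transmitter. In the striatum they are known from the same sparse class of GABAergic interneuron, which also makes nitric oxide through the enzyme encoded by Nos1. Their receptors couple to inhibitory G proteins, which lower cAMP and open potassium channels. Sstr1 and Sstr2 encode somatostatin receptors, Npy1r a receptor found mostly on target cells, and Npy2r a receptor known as an autoreceptor of neurons that make neuropeptide Y.

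The genes lie apart in the genome (GRCm38, the assembly of mm10, GENCODE M21 annotation). Sst lies at chr16:23889573-23890958 on the minus strand with 721 exonic bases, and Npy at chr6:49822710-49829507 on the plus strand with 566. Sstr2, at chr11:113619342-113626028 on the plus strand, overlaps Slc39a11 on the other strand, and whether counting used strand was not given in the sources used, so its reads and those of Slc39a11 may not be fully separate. Sstr1 lies at chr12:58211772-58214444, Npy1r at chr8:66697192-66706792, Moxd1 at chr10:24223517-24302790 and Chodl at chr16:78930948-78951733, all on the plus strand, and Npy2r at chr3:82538383-82548084 on the minus strand. No overlapping gene is annotated for the other 7.

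Sst and Npy shared the 8 nuclei described below, so the stretch before each start is shown from RefSeq (GRCm38.p6), together with that of Sstr2, which shares a motif with Sst. Capitals mark the 8 letters TGACGTCA, the cAMP response element (CRE), a motif described early in the Sst promoter. The Sst and Sstr2 stretches are 30 bases around it, and the Npy stretch is the whole 250 bases before the start.
Sst (chr16:23890874-23890903, minus strand): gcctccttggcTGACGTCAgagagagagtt
Sstr2 (chr11:113619258-113619287, plus strand): ccaagctgccgTGACGTCAcgggcgggggc
Npy (chr6:49822460-49822709, plus strand): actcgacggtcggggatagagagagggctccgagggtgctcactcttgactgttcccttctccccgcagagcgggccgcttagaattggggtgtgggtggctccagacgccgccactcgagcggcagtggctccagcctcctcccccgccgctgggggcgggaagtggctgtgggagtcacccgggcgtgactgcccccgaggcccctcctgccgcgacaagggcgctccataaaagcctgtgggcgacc
The motif begins 48 bases before the Sst start and 58 bases before the Sstr2 start in RefSeq. GENCODE places the Sst start 114 bases further upstream, which puts the Sst stretch inside its first exon, in the 5′ UTR. The letters TGACGTCA, searched on both strands in the 250 bases before each start, occur in 508 of 32851 RefSeq windows (1.55%). The shorter TGACG, which is part of TGACGTCA on either strand, occurs in 17.8% of them, and TAATTA, a core of homeodomain sites, in 4.84%. Of the 7 members with an entry, Sst and Sstr2 held TGACGTCA, none held TAATTA, and none besides these 2 held TGACG.

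Sst and Npy reads occurred together, at very high levels, in 8 nuclei. A nucleus was called peptide-making when Sst or Npy reached 1000 CPM, which 9 nuclei did, and in 8 of them both genes passed. These made up 3 of 355 kept Oprm1-Cre nuclei (0.845%, exact 95% interval 0.175% to 2.45%) and 5 of 381 Slc32a1-Cre nuclei (1.31%, 0.427% to 3.04%). All 8 lay in the cluster that was not SPN-like, although none of the 8 member genes was used for clustering. The sources used do not say how nuclei were picked for wells, so these shares describe the wells, not the tissue.

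Sst in the Oprm1-Cre plate was 32697 CPM in the nucleus of well M11, 22921 in F21 and 10456 in L18. It was 27862 CPM in the Slc32a1-Cre nucleus of E11, 24025 in D8, 19973 in A11, 19814 in L8 and 9731 in O14. Npy in the same order was 16967, 53729 and 12909.9 CPM in the Oprm1-Cre nuclei. For the Slc32a1-Cre nuclei it was 27059, 47372, 27734, 40327 and 18754 CPM. The ranges of the 2 plates overlapped for both genes. Per kilobase of exon, Npy stood at 0.661 to 2.99 times Sst, and above Sst in every both-peptide nucleus other than M11.

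The nuclei were set apart by a wide gap. The lowest higher-of-the-pair value among the 8 was 12909.9 CPM. The ninth peptide-making nucleus, well K7 of the Oprm1-Cre plate, had 1298 CPM of Sst from 139 reads and 9.34 CPM of Npy from 1 read. It was D2-like, with Penk at 1830 CPM and Drd1 at 495, and had no read of Nos1, Lhx6, Sox6, Tacr1 or Npy2r. Just below the limit, a D1-like nucleus in well H12 of the Oprm1-Cre plate had 603 CPM of Sst and 225 of Npy. Next came a D1-like nucleus in well L14 of the Slc32a1-Cre plate, in the row of the maker L8, with 186 CPM of Sst and 416 of Npy.

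**Figure D1:**
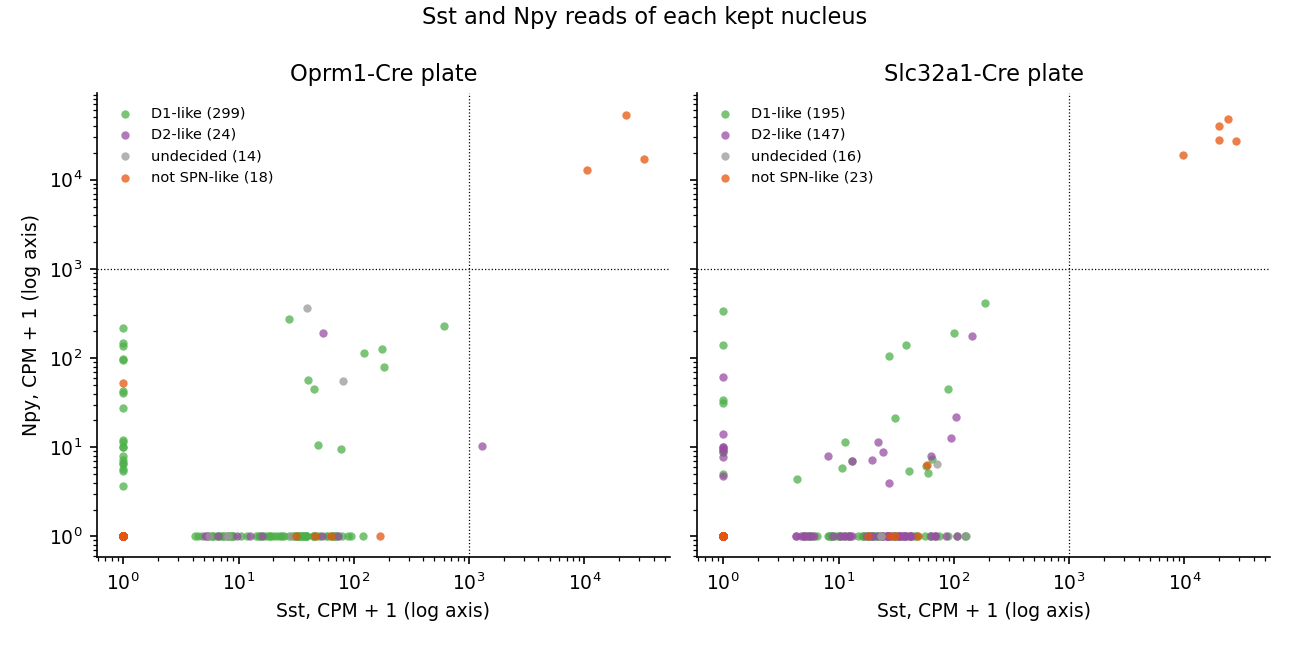
Sst against Npy of each kept nucleus, in CPM + 1 on log axes, with 1 panel per plate and colours for the classes. Dotted lines mark 1000 CPM; 3 and 5 nuclei lie above both lines, and 1 D2-like nucleus of the Oprm1-Cre plate lies past the Sst line only.

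The other members were shared unevenly among the 8 both-peptide nuclei. Npy2r had reads in 8 of 8, from 333 to 987 CPM, with a median of 568. By well, it was 520 CPM in M11, 987 in F21 and 571 in L18 of the Oprm1-Cre plate. Among the Slc32a1-Cre nuclei it was 333 CPM in E11, 727 in D8, 564 in A11, 796 in L8 and 562 in O14. Outside these nuclei Npy2r had reads in 27 of 728 nuclei (3.71%), at 18 CPM over their summed reads. The level summed over the 8 was 33.9 times that of the rest. None of the other 33 nuclei that were not SPN-like had an Npy2r read, and the level in the 8 did not lie above that of every other nucleus, since the highest elsewhere was 2691 CPM in a D2-like nucleus.

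Chodl, the gene of a membrane lectin-like protein, had reads in 4 of 8 nuclei and in 0 of the 728 others. It was 717 CPM in F21 of the Oprm1-Cre plate and 447, 915 and 245 CPM in D8, A11 and O14 of the Slc32a1-Cre plate. Taking 3 reads over the 728 others as a floor, the summed level in the 8 was at least 14113-fold higher. Moxd1, the gene of a monooxygenase related to dopamine beta-hydroxylase, also had reads in 4 of 8. It was 2642 CPM in M11 and 1054 in L18 of the Oprm1-Cre plate, and 2310 in E11 and 2189.8 in A11 of the Slc32a1-Cre plate. Only A11 had reads of both genes, and L8 had neither.

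Unlike Chodl, Moxd1 was not limited to the both-peptide nuclei. It had reads in 2 other Oprm1-Cre and 9 other Slc32a1-Cre nuclei, of which 10 were not SPN-like and 1 was undecided. Of the 9 Slc32a1-Cre nuclei, 8 also had reads of Pthlh, a marker of another interneuron type, and 6 had reads of Pvalb. Neither of the 2 Oprm1-Cre nuclei had a Pthlh read. None of the 8 both-peptide nuclei had a read of Pthlh, Pvalb, Th, Trh or Chat, which mark other interneuron types.

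Among the receptors, Sstr1 had reads in 4 of the 8 both-peptide nuclei. It was 23.8 CPM in F21 of the Oprm1-Cre plate and 415, 343 and 481 CPM in D8, A11 and L8 of the Slc32a1-Cre plate. Elsewhere it had reads in 4 of 728 nuclei, at most 96.9 CPM, none of them D1-like or D2-like. Sstr2 had reads in 1 of the 8, at 218 CPM in M11, and Npy1r in 0 of 8.

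Genes known from this interneuron class were present in varying combinations. Nos1 had reads in 8 of 8, from 21.9 to 538 CPM, and in 9 of the 728 others (1.24%). Tacr1, the receptor for substance P, ran from 413 to 8447 CPM with reads in 8 of 8. It also had reads in 49 of the 728 others, up to 2421 CPM. Sox6, a transcription factor gene of interneurons, ran from 46.0 to 1137 CPM. Lhx6, another such gene, had reads in 7 of 8, Nxph1 in 6, Grin3a in 5, Elfn1 in 1 and Crhbp in 0. The GABA genes Gad1, Gad2 and Slc32a1 had reads in 8, 5 and 7 of the 8. Over summed reads, Gad1 was 683 CPM in the 8 against 1049 in the others, and Gad2 178 against 521. Slc32a1 was 57.3 CPM against 30.9. Gucy1a3 and Gucy1b3, subunit genes of the nitric oxide receptor that were listed with these genes, had reads in 5 and 4 of the 8. Their summed levels were lower there, at 126 and 120 CPM against 247 and 264 CPM.

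The genes most like Sst and Npy were then ranked over kept nuclei by Pearson's r of log2(CPM + 1) with the mean of the pair, taking the lower r of the plates. The first 8 were Nxph2 (0.614), Hhip (0.604), Fam46a (0.52), Galr1 (0.508), St6galnac2 (0.498), Nos1 (0.44), Sox6 (0.435) and Tacr1 (0.434). Npy2r came at rank 13 with 0.346 and Moxd1 at rank 63 with 0.18. These values describe 355 and 381 nuclei that share their plate, and rest on the same few nuclei. Hhip, which binds hedgehog ligands, ran from 237 to 6986 CPM in the 8 nuclei against 0.281 CPM over the others.

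Genes for making and packing peptides differed among themselves in these nuclei. Scg2, which encodes a granin of dense-core vesicles, was 2113 to 12504 CPM in the 8 both-peptide nuclei against 1138 CPM over the summed reads of the others, 5.43 times as high. Pam, which amidates peptides such as neuropeptide Y, was 1369 to 4464 CPM against 293, 9.997 times as high. Every one of the 8 lay above the summed level of the rest for both genes. Single nuclei elsewhere reached higher, up to 21593 CPM of Scg2, above all 8, and up to 2351 CPM of Pam, above the lowest of the 8. Cpe, which trims precursors, was 1333 to 3996 CPM against 1325. Pcsk2, a convertase, was lower at 167 CPM against 672, and Pcsk1 had reads in 1 of 8. SPN genes were low but not absent: Ppp1r1b had reads in 7 of 8, at 248 CPM over the summed reads against 1337, and Adcy5 in 3, at 17.6 against 839. With nuclei from 2 plates that share their plate, these differences were not tested.

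**Figure D2:**
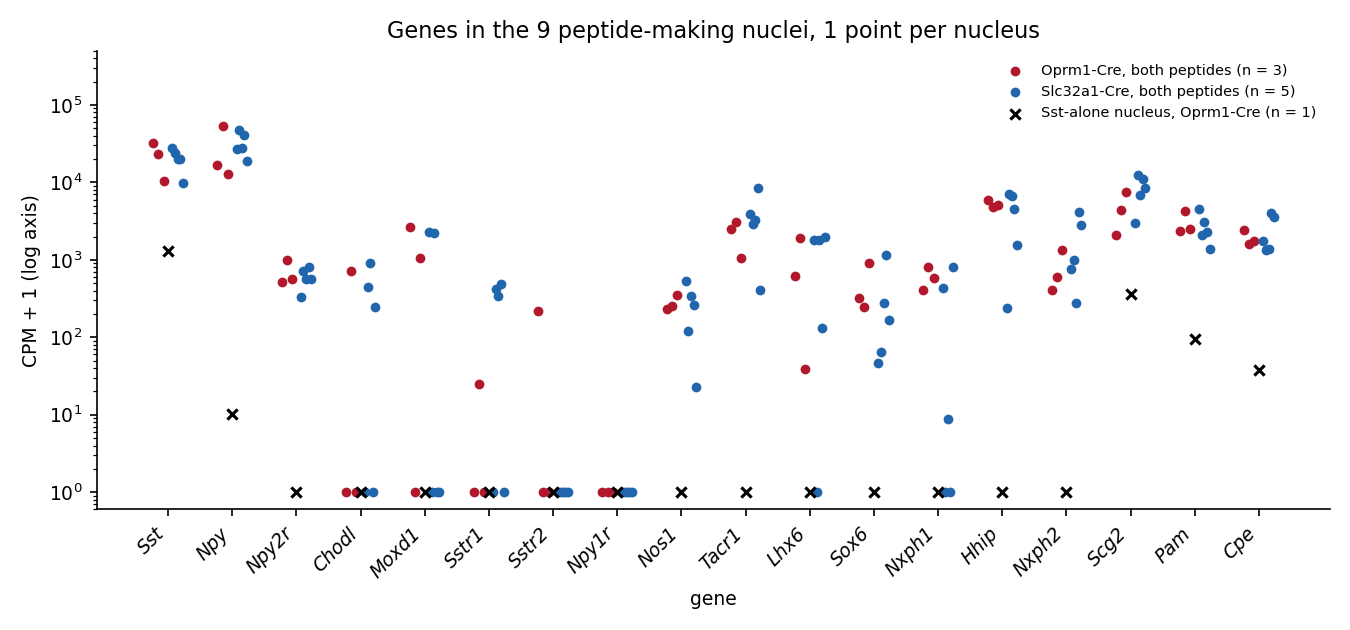
CPM + 1 on a log axis in each of the 9 peptide-making nuclei, 1 point per nucleus, coloured by plate; the cross is the Sst-alone nucleus of well K7. Npy2r, Nos1, Tacr1, Hhip and Nxph2 were above 0 in all 8 both-peptide nuclei, whereas Chodl, Moxd1 and Sstr1 were each at 0 in 4.

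Away from the makers, Sst reads were common and few, and they lay along plate rows. Without thinning, Sst had reads in 24.7% of D1-like and 41.7% of D2-like Oprm1-Cre nuclei, and in 34.9% and 38.8% of such Slc32a1-Cre nuclei. In nuclei that shared a row with a both-peptide nucleus, Sst had reads in 50 of 61 (82.0%, exact 95% interval 70.0% to 90.6%) in the Oprm1-Cre plate. The same was true of 109 of 115 (94.8%, 89.0% to 98.1%) in the Slc32a1-Cre plate. In nuclei that shared neither row nor column, the counts were 28 of 253 (11.1%, 7.48% to 15.6%) and 16 of 228 (7.02%, 4.06% to 11.1%). Nuclei that shared the column only lay between, at 40.5% (24.8% to 57.9%) and 27.3% (13.3% to 45.5%). Nuclei of 1 plate are not replicates, so these intervals cover counting error only and no test was made.

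Each of the 8 maker rows lay above every other row of its plate. In the Oprm1-Cre plate, Sst reads were found in 100% of the other kept nuclei of row M, 95.2% of row L and 50% of row F. Such reads were found, on the Slc32a1-Cre plate, in 100% of rows A and E, 95.7% of rows L and O, and 82.6% of row D. In rows without a both-peptide nucleus the share ran from 0% to 40% for Oprm1-Cre (median 13.04%) and from 0% to 20.8% for Slc32a1-Cre (median 8.33%). The row of K7, the Sst-alone nucleus, stood at 9.09%. The reads of the other nuclei of maker rows summed to 2.22% of the makers' own Sst reads in the Oprm1-Cre plate and 3.29% in the Slc32a1-Cre plate.

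The pattern held at 1 fixed depth. After each nucleus was thinned to 50000 reads, Sst had reads in 59.0% and 62.6% of nuclei in rows of both-peptide nuclei, against 7.63% and 3.08% in neither row nor column. With the row of K7 counted as a maker row, the Oprm1-Cre value was 44.6% against 7.73%. It also held within a class. D1-like nuclei had Sst reads in 82.4% of 51 in maker rows against 10.19% of 216 in the Oprm1-Cre plate, and in 96.4% of 56 against 7.38% of 122 in the Slc32a1-Cre plate. D2-like nuclei of the Slc32a1-Cre plate had them in 92% of 50 against 8.24% of 85.

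Npy did not show the row pattern to the same degree, although the makers held as many or more reads of it (19820 against 15556 Sst reads in the Oprm1-Cre plate, 30359 against 20878 in the Slc32a1-Cre plate). In maker rows, Npy had reads in 6.56% of Oprm1-Cre nuclei (1.82% to 15.9%) and 18.3% of Slc32a1-Cre nuclei (11.7% to 26.5%). In neither row nor column the shares were 7.11% (4.27% to 11.01%) and 5.26% (2.75% to 9.01%). Of the 21 nuclei with Npy reads in the Slc32a1-Cre maker rows, 16 had a single read. Npy reads of the other nuclei of maker rows came to 0.131% and 0.402% of the makers' own. After thinning, the Npy shares in maker rows were 1.64% and 4.35%, against 5.62% and 3.08% in neither row nor column. Of nuclei that shared only a column with a both-peptide nucleus, 10 of 37 (27.0%, 13.8% to 44.1%) and 8 of 33 (24.2%, 11.1% to 42.3%) had Npy reads before thinning, and 13.5% and 3.03% after it. The other genes high in the 8 nuclei were compared in the same way over SPN-like and undecided nuclei. Hhip, with 3465 and 3575 reads in the makers, had reads in 1 of 57 and 3 of 110 such nuclei of maker rows. In neither row nor column it had reads in 3 of 243 and 0 of 219. Tacr1 had reads in 1 of 57 and 5 of 110 in maker rows, against 6 of 243 and 16 of 219. Chodl and Moxd1 had reads in 0 of 57 and 0 of 110 in maker rows. What set the row pattern of Sst was not tested.

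**Figure D3:**
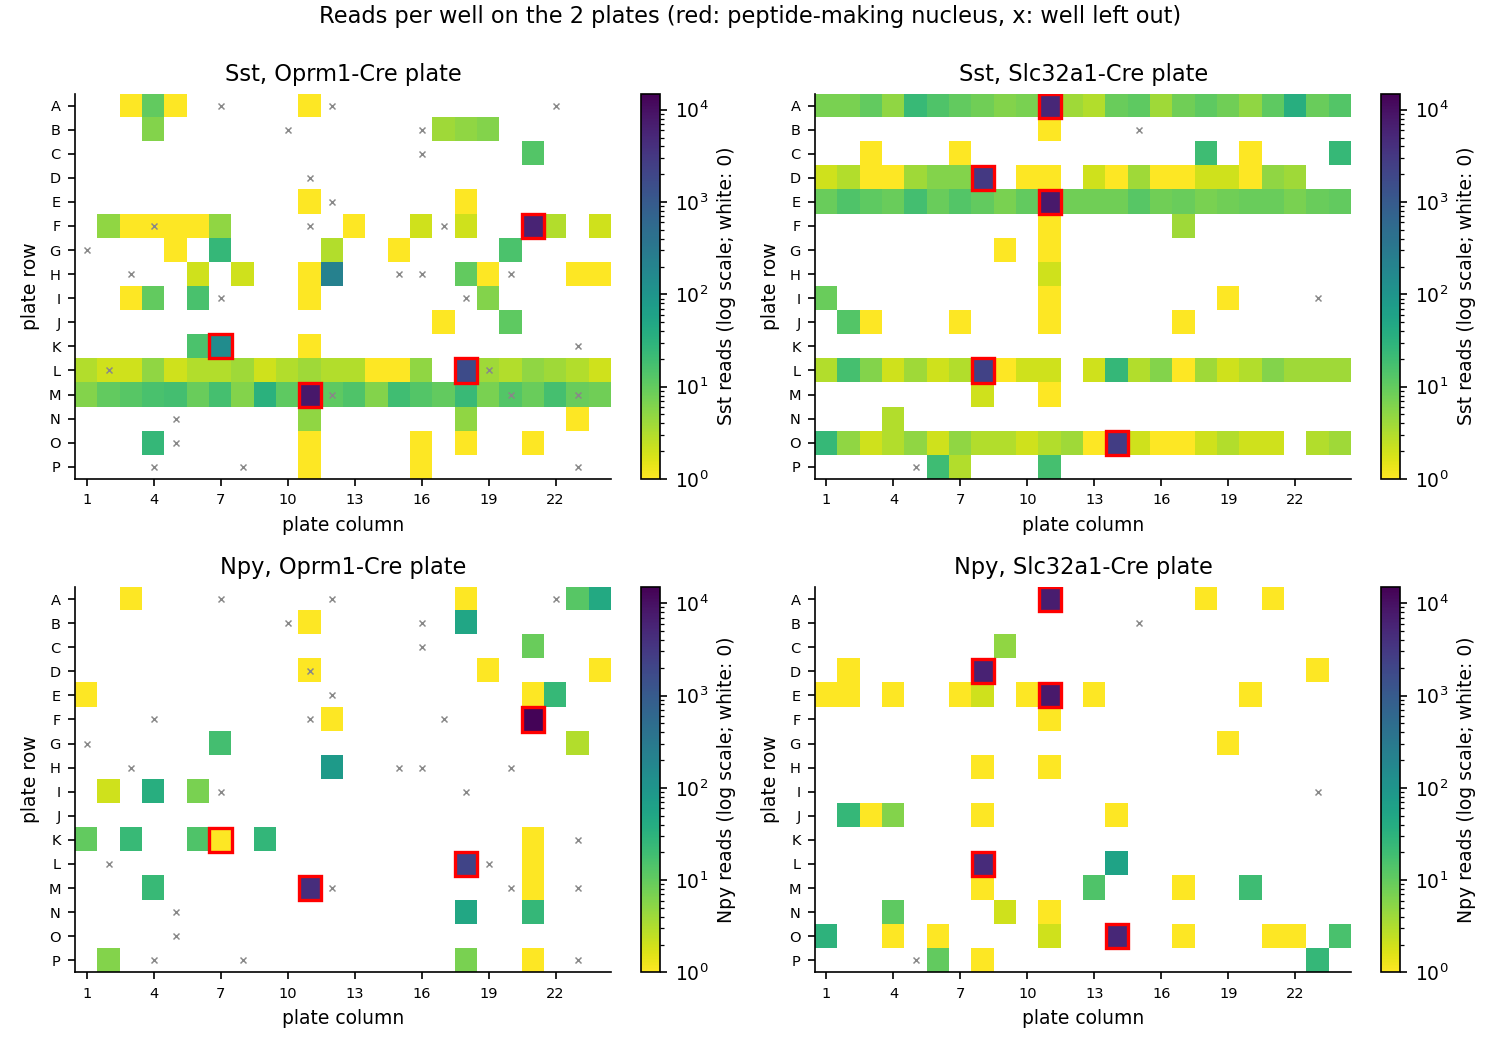
Sst reads (upper panels) and Npy reads (lower panels) in each well by plate row and column, on a log colour scale with white for 0; red frames mark peptide-making nuclei and crosses mark wells left out. Sst reads are found in 82.6% to 100% of the other nuclei in 7 of the 8 rows of both-peptide nuclei and in 50% in row F of the Oprm1-Cre plate; Npy reads are found in at most 34.8%.

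**Figure D4:**
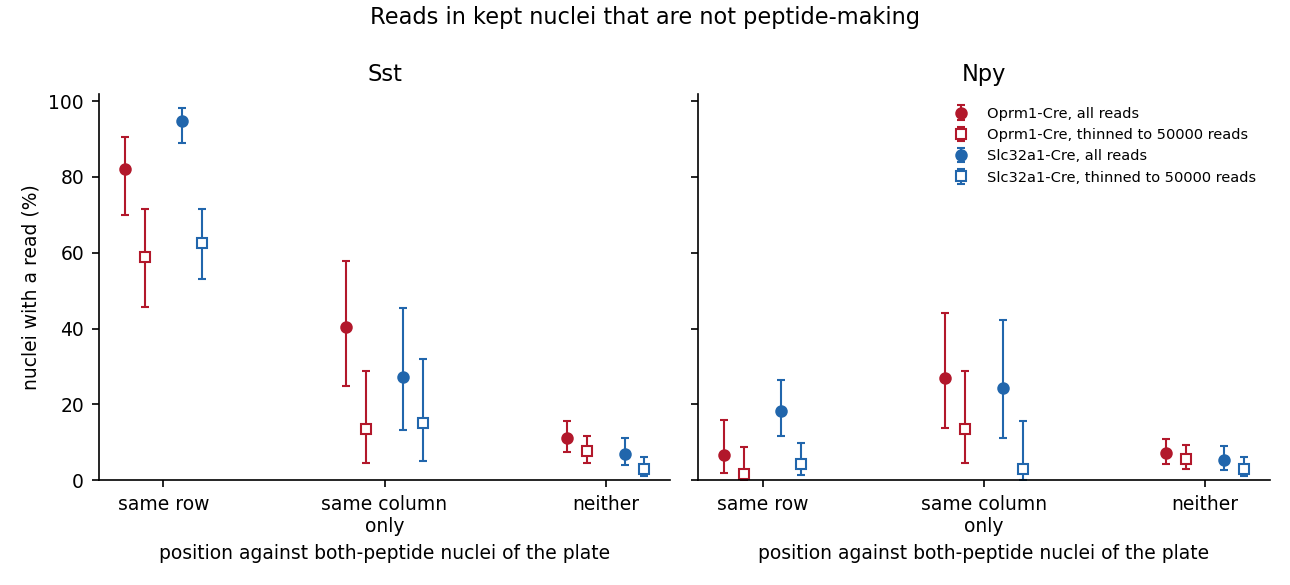
Percentage of kept nuclei, peptide-making ones left out, with a read of Sst (left) or Npy (right), by position against the both-peptide nuclei of their plate. Points are shares with exact 95% intervals, filled for all reads and open after thinning to 50000 reads; Sst stands at 82.0% and 94.8% in the same row and at 11.1% and 7.02% in neither.

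Larger Sst and Npy values also occurred away from maker rows. Among nuclei in neither row nor column, 9 in the Oprm1-Cre plate and 4 in the Slc32a1-Cre plate had at least 10 Sst reads, up to 217 reads in H12 of the Oprm1-Cre plate. For Npy the numbers were 10 and 6, up to 81 reads, again in H12. Over D1-like nuclei the summed Sst level was 11.97 CPM for Oprm1-Cre and 10.99 CPM for Slc32a1-Cre, and in D2-like nuclei it was 41.5 and 11.3 CPM. Position entered these sums: Slc32a1-Cre D1-like nuclei had 29.7 CPM of Sst (26.5 to 33.2) in maker rows and 2.70 CPM (2.07 to 3.47) in neither row nor column. The D2-like nuclei there had 27.97 CPM and 2.49 CPM, and D1-like Oprm1-Cre nuclei had 29.9 and 9.30 CPM. H12 held 217 of the 370 reads behind the last value, which was 3.88 CPM (3.29 to 4.54) without it. Without their nucleus of most reads, the D2-like Slc32a1-Cre nuclei in neither row nor column had 1.12 CPM. The nucleus of K7 held 81.3% of the Sst reads of the 24 D2-like nuclei, and without it their level was 7.96 CPM. Npy was 6.87 and 8.97 CPM in D1-like and D2-like Oprm1-Cre nuclei, and 5.31 and 2.07 CPM in the same classes of Slc32a1-Cre. A single nucleus held 97.3% of the Npy reads of the Oprm1-Cre D2-like nuclei, which stood at 0.254 CPM without it. Another held 49.2% of those of the Slc32a1-Cre D2-like nuclei, which stood at 1.06 CPM without it. Of D1-like Oprm1-Cre nuclei with an Sst read, 12.2% (5.71% to 21.8%) also had an Npy read, against 8.44% (5.16% to 12.9%) of those without. For Slc32a1-Cre the values were 20.6% (11.7% to 32.1%) against 5.51% (2.24% to 11.03%). These shares pool all plate positions. In D1-like Slc32a1-Cre nuclei of maker rows, 96.4% had Sst reads and 16.1% Npy reads, against 7.38% and 8.20% in neither row nor column. The Oprm1-Cre shares for Npy were 7.84% and 7.41%. The part of position in the joint reads was not tested.

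Receptor genes were found in a minority of SPN-like nuclei. Of the 4 member receptors, Npy1r was the one most often found. It had reads in 49 of 299 D1-like Oprm1-Cre nuclei (16.4%, exact 95% interval 12.4% to 21.1%) and 49 of 195 Slc32a1-Cre ones (25.1%, 19.2% to 31.8%). In D2-like nuclei it had reads in 3 of 24 (12.5%, 2.66% to 32.4%) and 16 of 147 (10.9%, 6.35% to 17.1%). Among the nuclei that were not SPN-like, both-peptide nuclei left out, Npy1r had reads in 2 of 15 and 1 of 18. The median depths of D1-like nuclei were 169735 and 166894 reads, against 202092 and 172556 for all nuclei that were not SPN-like.

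The summed level of Npy1r was 25.7 CPM (exact Poisson 95% interval 24.4 to 27.1) for D1-like and 22.8 CPM (18.4 to 27.9) for D2-like Oprm1-Cre nuclei. The Slc32a1-Cre values were 44.0 CPM (41.8 to 46.2) and 31.2 CPM (29.2 to 33.3). The intervals of the classes overlapped in the first plate and not in the second. They cover counting error only, not the spread among nuclei, and a single nucleus held 32.6% of the D2-like Slc32a1-Cre reads. Over the 4 sums of plate and class, the log2 difference of D1-like over D2-like was 0.28 (standard error 0.484), with an adjusted p of 1 by edgeR's quasi-likelihood test. Single nuclei weighed heavily: without the highest, D2-like Oprm1-Cre nuclei stood at 8.89 CPM (6.19 to 12.4) and D2-like Slc32a1-Cre nuclei at 21.3 CPM. The D1-like values without the highest nucleus were 22.9 and 41.0 CPM.

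Npy2r was rarer in SPN-like nuclei, at 6 of 299 D1-like and 2 of 24 D2-like Oprm1-Cre nuclei, and 12 of 195 and 5 of 147 Slc32a1-Cre ones. Its summed level was 2.71 CPM (2.29 to 3.18) and 0.485 CPM (0.0587 to 1.75) in the first, and 33.4 CPM (31.5 to 35.3) and 28.2 CPM (26.4 to 30.2) in the second. Where it was found its level could be high, at most 2034 CPM in a D1-like and 2691 CPM in a D2-like nucleus of the Slc32a1-Cre plate. The latter nucleus held 55.7% of the reads of its class, and without it the class stood at 12.6 CPM. Without the nucleus of most reads, D1-like nuclei stood at 1.62 CPM for Oprm1-Cre and 26.4 CPM for Slc32a1-Cre. An undecided nucleus of the Oprm1-Cre plate had 1102 CPM of Npy2r together with 96.9 CPM of Sstr1. The log2 difference over the 4 sums was 1.05 (standard error 0.869; edgeR adjusted p = 1).

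Sstr2 stood on opposite sides in the 2 plates. Its level was 14.5 CPM (13.5 to 15.6) for D1-like and 35.6 CPM (30.1 to 41.9) for D2-like Oprm1-Cre nuclei. The Slc32a1-Cre values were 30.7 CPM (28.9 to 32.6) and 12.3 CPM (11.04 to 13.6). The reads came from 16 of 299, 2 of 24, 25 of 195 and 8 of 147 nuclei in that order. Single nuclei carried much of this. With the nucleus of most reads left out of each group, the Oprm1-Cre levels were 10.7 CPM (9.84 to 11.6) for D1-like and 15.8 CPM (12.04 to 20.3) for D2-like nuclei, and the Slc32a1-Cre levels were 27.6 and 7.25 CPM. The sides stayed as they were in both plates, with a smaller gap in the first. There only 2 of 24 D2-like nuclei had reads, so the 15.8 CPM rests on a single nucleus. The shares with a read in that plate were 5.35% (3.09% to 8.54%) of D1-like and 8.33% (1.03% to 27.0%) of D2-like nuclei. The fitted log2 difference was -0.03 with a standard error of 0.826 (edgeR adjusted p = 1). The difference between the plates was not tested.

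Sstr1 had 0 reads in the 299 and 24 D1-like and D2-like Oprm1-Cre nuclei and in the 195 and 147 Slc32a1-Cre ones. With 3 nuclei taken as the most that a count of 0 allows, the shares with a read could be up to 1.003%, 12.5%, 1.54% and 2.04% in that order. Chodl likewise had 0 reads in all 4 groups, as had Moxd1. These 3 genes were too low in SPN-like nuclei to be tested.

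**Figure D5:**
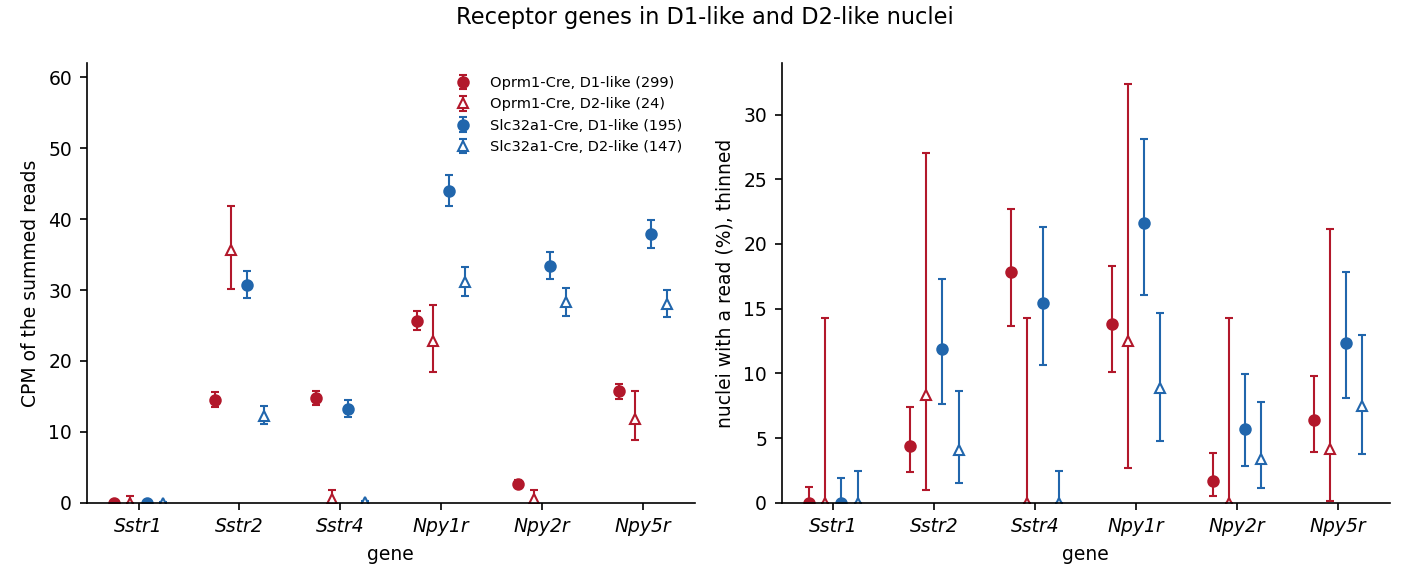
Receptor genes in D1-like (circles) and D2-like (triangles) nuclei of each plate: CPM of the summed reads with exact Poisson 95% intervals (left) and percentage of nuclei with a read after thinning to 50000 reads with exact 95% intervals (right). Sstr4 lies near 0 in D2-like nuclei of both plates, and Sstr2 is higher in D2-like Oprm1-Cre nuclei and in D1-like Slc32a1-Cre nuclei.

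Per kilobase of exon, the order of the receptors in D1-like Oprm1-Cre nuclei was Sstr4 (10.4 CPM per kilobase), Npy1r (7.44), Sstr2 (6.77), Npy5r (6.16) and Npy2r (0.8). The counting intervals of Npy1r (7.06 to 7.84) and Sstr2 (6.31 to 7.26) overlapped, as did those of Sstr2 and Npy5r (5.76 to 6.58). For Slc32a1-Cre the order was Npy5r (14.8), Sstr2 (14.3), Npy1r (12.7), Npy2r (9.86) and Sstr4 (9.30). There the intervals of Npy5r (14.03 to 15.6) and Sstr2 (13.5 to 15.2) overlapped, and those of Npy2r (9.31 to 10.4) and Sstr4 (8.48 to 10.18). Single nuclei bear on this order. Without the D1-like Slc32a1-Cre nucleus of most reads, Npy5r went from 37.9 to 30.7 CPM and Sstr2 from 30.7 to 27.6 CPM. Npy2r went from 33.4 to 26.4 CPM and Sstr4 from 13.2 to 11.55 CPM. In D1-like Oprm1-Cre nuclei the same step took Sstr2 from 14.5 to 10.7 CPM and Npy5r from 15.7 to 12.9 CPM. The order per kilobase was not set out again without these nuclei in either plate, so the places of close genes may differ.

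Of the 5 members that passed the filter on low counts (Sst, Npy, Sstr2, Npy1r and Npy2r), 0 were called between D1-like and D2-like nuclei at an adjusted p under 0.05, and 0 had an unadjusted p under 0.05, by edgeR. DESeq2 called 0 of 5 as well. The background was low. Of 13829 genes, 0.0578% (8 genes) were called higher in D1-like and 0.0868% (12 genes) higher in D2-like nuclei, and 631 had an unadjusted p under 0.05. With 4 sums and 1 residual degree of freedom the test was weak. In simulated data on these 13829 genes, 7.46% of 2-fold, 37.3% of 4-fold and 68.2% of 16-fold changes were recovered, and 4 unchanged genes were called. The simulated data held no difference between plates, and the changed genes were of all levels, so the rates need not hold for the members. Sst was -0.97 on the log2 scale (standard error 0.756), which turned to 0.21 without the nucleus of K7, and Npy was 0.43 (standard error 1.19), both with an adjusted p of 1. The class markers behaved by construction, with Drd1 at 7.05 and Penk at -6.90 (adjusted p = 1.43e-05 and 9.3e-07).

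Among the other receptor genes of both systems, Sstr4 had the largest difference. Of these 6 genes, 4 were tested, and edgeR called 0, with 1 at an unadjusted p under 0.05. Sstr4, a further somatostatin receptor gene, was 14.8 CPM (13.8 to 15.8) for D1-like and 0.485 CPM (0.0587 to 1.75) for D2-like Oprm1-Cre nuclei. The Slc32a1-Cre values were 13.2 CPM (12.1 to 14.5) and 0.0678 CPM (0.00821 to 0.245). It had reads in 70 of 299 and 31 of 195 D1-like nuclei, against 2 of 24 and 2 of 147 D2-like nuclei with 1 read each. The log2 difference was 6.23 (standard error 1.44), higher in D1-like nuclei in 2 of 2 plates. Its edgeR p was 0.00345 and 0.569 after adjustment over all genes, whereas DESeq2 gave an adjusted p of 0.00142. Npy5r, which lies beside Npy1r on chromosome 8, was 15.7 and 11.9 CPM in D1-like and D2-like Oprm1-Cre nuclei, all of the latter in 1 nucleus, and 37.9 and 28.1 CPM for Slc32a1-Cre. Its log2 difference was 0.36 (standard error 0.569; edgeR adjusted p = 1). Sstr3 and Sstr5 stayed under 5 CPM in all 4 sums, and Npy4r and Npy6r had 0 reads in any kept nucleus.

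Npy1r and Npy5r were then compared within nuclei. In D1-like Slc32a1-Cre nuclei, Npy5r had reads in 20.4% of those with an Npy1r read (10 of 49, 10.24% to 34.3%) and 12.3% of those without (7.47% to 18.8%). The Oprm1-Cre shares were 14.3% (5.94% to 27.2%) and 6.4% (3.70% to 10.19%). The intervals overlapped in both plates. Nuclei with an Npy1r read in the Slc32a1-Cre plate had a median depth of 189277 reads, against 162020 for those without, and the part of depth in this was not tested.

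Of the rest of the pathway, 1 gene was called between D1-like and D2-like nuclei by edgeR. Of 11 genes for peptide processing and vesicles, 11 were tested and 0 called by edgeR, with a median log2 difference of 0.17 beside 0.10 over all genes (0.103). Scg2 stood highest in this list by its difference, at 0.77 (standard error 0.184; adjusted p = 0.593). Of 9 genes through which the receptors act, 8 were tested and 0 called, with a median of 0.13. Among them Adcy5, the main adenylate cyclase gene of SPNs, stood at -0.09 and Gnao1 at -0.39 (adjusted p = 1 for both). Of 13 genes on a fixed list of companions of the Sst and Npy interneuron, 10 were tested and 1 was called, Gucy1a3. This subunit gene of the nitric oxide receptor was not higher in the both-peptide nuclei, at 126 CPM summed against 247 CPM in the others. Between D1-like and D2-like nuclei it stood at -1.94 (standard error 0.189, edgeR adjusted p = 0.0156). The call was lost without possible doublets (edgeR adjusted p = 0.0782), without K7 (0.078) and with no plate term (0.459), with log2 differences from -2.00 to -1.91 over all alternatives. Gucy1a3 was 121 and 424 CPM in D1-like and D2-like Oprm1-Cre nuclei, and 164 and 636 CPM for Slc32a1-Cre. The partner subunit gene Gucy1b3 was -0.86 (standard error 0.196; adjusted p = 0.552). DESeq2 tested 12 genes of this list and called 3, Gucy1a3 and Gucy1b3 as lower and Nxph1 as higher in D1-like nuclei. Over all 17140 genes it called more than edgeR did, 130 as higher in D1-like and 72 as higher in D2-like nuclei. The other peptide genes of the families were scarce: Cort had at most 2.61 CPM in a class, and Pyy and Ppy had 0 reads.

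Between plates no test is possible, and values are given as log2 of the Oprm1-Cre over the Slc32a1-Cre level with 5 CPM added to each, which understates differences of low genes. In D1-like nuclei, 5 members reached 5 CPM in either plate. Of these, 3 lay below -0.5, Sstr2 at -0.87, Npy1r at -0.67 and Npy2r at -2.32, and 0 lay above 0.5. Over all 11020 genes measured so, 12.3% lay below -0.5 and 14.9% above 0.5. Npy5r also lay below, at -1.05, and Sstr4 at 0.12 did not. In D2-like nuclei 1 of 5 members lay below, Npy2r at -2.60, and 3 lay above, Sst at 1.51, Npy at 0.98 and Sstr2 at 1.23. There 29.2% of 10969 genes lay below and 23.5% above, with only 24 nuclei in the Oprm1-Cre plate. Single nuclei bore on these 3: without the Oprm1-Cre nucleus of most reads, Sst stood at -0.33, Npy at -0.43 and Sstr2 at 0.27. With the nucleus of most reads left out of both plates, they stood at -0.27, -0.21 and 0.76, Npy1r went from -0.38 to -0.92, and Npy2r to -1.74. In D1-like nuclei the same step in both plates left Sstr2 at -1.055, Npy1r at -0.72 and Npy2r at -2.245.

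The Oprm1-Cre plate was aimed at patches, so receptor levels were also set out by a patch against matrix score of each D1-like nucleus, which gives a range and no cell type. In that plate 188 nuclei leaned to patch and 111 to matrix, and in the Slc32a1-Cre plate 19 and 176. Npy1r was lower in patch-leaning nuclei of both plates, at 20.3 CPM (18.8 to 21.8) against 35.1 (32.6 to 37.8), and 28.3 (22.7 to 34.7) against 45.5 (43.2 to 47.9). The Slc32a1-Cre patch-leaning value came from 2 of 19 nuclei. Npy2r was 1.11 against 5.49 CPM and 0.314 against 36.6 CPM, and Sstr2 was 11 (9.93 to 12.2) against 20.6 and 0.314 against 33.7 CPM. In the Oprm1-Cre plate the Npy2r reads came from 2 of 188 patch-leaning and 4 of 111 matrix-leaning nuclei. Sstr2 reads came there from 9 of 188 (4.79%, 2.21% to 8.89%) and 7 of 111 (6.31%, 2.57% to 12.6%), with overlapping intervals. Of the 19 patch-leaning nuclei of the Slc32a1-Cre plate, 1 had an Sstr2 read and 1 an Npy2r read. Sstr4 was 13.2 (12 to 14.4) against 17.6 CPM (15.8 to 19.5) and 5.97 (3.59 to 9.32) against 13.97 CPM. As a share of Oprm1-Cre nuclei, Sstr4 was 23.9% in patch-leaning and 22.5% in matrix-leaning ones. Npy5r was 7.03 (6.18 to 7.97) against 30.9 CPM (28.5 to 33.5) for Oprm1-Cre. Its reads came there from 9 of 188 (4.79%, 2.21% to 8.89%) and 14 of 111 nuclei (12.6%, 7.07% to 20.3%), with overlapping intervals of the shares. For Slc32a1-Cre it was 37.4 (31.0 to 44.7) against 37.9 CPM (35.8 to 40.1), and 1 of 19 patch-leaning nuclei had a read. Nuclei near the dividing value numbered 30 in the Oprm1-Cre plate (14 and 16) and 5 in the Slc32a1-Cre plate (3 and 2). Each pair of values comes from 1 plate, and no test was made.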

How the data were processed

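The deposited values were raw counts, 1 whole number for each gene in each well. The submitters' processing notes name mm10, SAMtools and Seurat; the aligner, counter and annotation were not given in the sources used here. The labels' protocols describe a stranded total RNA kit; how single nuclei were amplified and indexed was not given in the sources used here. Wells were matched to genotypes by the sample titles. The plate number that the Slc32a1-Cre labels name is that of the Oprm1-Cre plate, while the deposited Slc32a1-Cre table carries another, and which is right was not tested. The counts carry no molecular identifiers, so intervals and floors cover counting error only.

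Spike-in RNAs (median 23.9% and 22.2% of reads per kept Oprm1-Cre and Slc32a1-Cre well) and the reporter were left out of totals. Wells were kept with at least 1000 genes and 20000 reads, clustered without the 8 members (2000 variable genes, 30 components, 15 neighbours, Leiden resolution 1; leidenalg 0.10.2, Python 3.11.15), and SPN-like nuclei were D1-like or D2-like when marker scores differed by more than 2. No doublet caller was run; 27 possible doublets were left out in an alternative. Thinning to 50000 reads left out 4 and 1 nuclei. Reads summed per plate and class were tested with edgeR 4.0.16 (quasi-likelihood test, TMM, filterByExpr, plate term, Benjamini-Hochberg adjustment), with DESeq2 1.42.0 as an alternative, after a test on simulated data. Intervals are exact Poisson or Clopper-Pearson at 95%. Named genes were the members, counts and the highest members of fixed lists, and the 8 genes most alike; Hhip and Sstr4 values beyond these, single wells and Pthlh were chosen after their values were seen. The members and lists were chosen with earlier results of these data known.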

Additional observations from a re-analysis of the deposited data

Results flagged for a closer look

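Sstr2 and Npy stood on opposite sides in the 2 plates when D1-like nuclei were set against D2-like nuclei, on the log2 scale with 5 CPM added. For Sstr2 the value was -1.06 in the Oprm1-Cre plate and 1.05 in the Slc32a1-Cre plate. For Npy it was -0.24 and 0.54. Each plate is 1 sample, and the difference between plates was not tested. The Oprm1-Cre values of D2-like nuclei rest on 24 nuclei, of which 2 had Sstr2 reads and 2 had Npy reads. Without the nucleus of most reads in each class, Oprm1-Cre D1-like and D2-like nuclei had 5.43 and 0.254 CPM of Npy, so the side turned, and 10.7 and 15.8 CPM of Sstr2, so it did not. Both of these D2-like values rest on a single nucleus.

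Sst reads also appeared in wells that failed the filters and enter no comparison. In the Oprm1-Cre plate 6 of 8 such wells in rows of both-peptide nuclei had Sst reads (75%, exact 95% interval 34.9% to 96.8%), at most 13 reads each, against 0 of 19 in neither row nor column, where 3 wells, taken as the most a count of 0 allows, would be 15.8%.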

How the results depend on the processing

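The alternatives were another tool, filter, score margin, limit or depth, and possible doublets or a plate left out; those without K7 or another single nucleus, and DESeq2 on the edgeR-filtered genes, were chosen after seeing the data. Of 8 genes called higher in D1-like nuclei, the number was 130 with DESeq2 on 17140 unfiltered genes, 86 with DESeq2 on the edgeR-filtered genes, 16 with no filter on low counts, 3 with no plate term (the plate being the block), 5 with a margin of 1, 5 with deeper wells (2000 genes and 100000 reads), 5 without possible doublets and 4 without K7. Of 12 higher in D2-like nuclei, it was 72 and 69 with DESeq2 on these gene sets, 5 with no plate term, 7 without possible doublets and 7 without K7; the cause was not tested. For single genes, Sst turned to 0.209 without K7, Npy was -0.235 without the Slc32a1-Cre plate and 0.545 without the Oprm1-Cre plate, and Sstr2 was 0.066 with a margin of 1, 1.049 without the Oprm1-Cre plate and -1.058 without the Slc32a1-Cre plate; values with a plate left out carry no test. Npy1r kept its direction in all 11 alternatives (0.143 to 0.653), Npy2r in 11 (0.206 to 1.072), and Sstr4 in 11, passing the threshold with DESeq2. Members below -0.5 in D2-like nuclei between plates numbered 2 with a margin of 1. Peptide-making nuclei numbered 34 at 100 CPM, of which 8 had Nos1 reads. The thinned Sst share in maker rows of the Oprm1-Cre plate was 62.7% unthinned, 30.1% for at least 2 reads, 6.02% for at least 5, 23.6% with makers from 100 CPM and 59.0% without the row of K7. In the Slc32a1-Cre plate it was 94.8% unthinned, 53.0% at 20000 reads, 40% for at least 2 reads, 11.3% for at least 5 and 34.7% from 100 CPM. Of Sstr2, Npy1r and Npy2r, 2 (Npy1r and Npy2r) had a higher share in D1-like nuclei of both plates thinned and 1 unthinned. With 24 D2-like nuclei in the Oprm1-Cre plate, a count of 0 was taken to allow a share of up to 12.5% (3 of 24). The exact 95% interval of such a count reaches 14.2%.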
